A study of Mus musculus with 10 samples.

Results

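Gene IDs that face only introns were followed in cortical tissue of mice that were wild type or homozygous for dTPR1, a Stip1 allele from which the TPR1 domain is deleted. Stip1 encodes STI1, a co-chaperone that links HSP70 and HSP90. An ID belongs here if its exons overlap the body of a gene on the opposite strand (the host) but touch no exon of that host or of any other opposite-strand gene in GENCODE M21, if its mean count over the 10 libraries is 3 or more, and if it lies over 5 Mb from Stip1 on chromosome 19. Of 53090 counted IDs, 5609 faced only introns, 22 of these lay near Stip1, and 365 of the remaining 5587 were chosen by their mean count. Their levels are therefore given as a description, with no test. At the threshold, 7 IDs had a mean of 3.0 and 14 had 2.9. Dnajb7 in Xpnpep3 and Fahd1 in Hagh stood just inside, each at 3.0, and Dpagt1 in Gm48853 and Gm12944 in Zmym1 just outside, each at 2.9.

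A primary transcript holds introns, which splicing removes and nuclear enzymes degrade. Total RNA keeps part of this unspliced and intronic RNA, and it can also hold RNA that runs past an annotated transcript end. When a read count is assigned to the strand opposite to the RNA, intronic RNA of a gene is counted at whichever ID happens to be annotated across from it, whether that ID is an antisense transcript, a pseudogene or a nested protein-coding gene.

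Both groups were C57BL/6 mice, 5 animals each, and no treatment is named in the labels. A piece of cortex from 1 hemisphere of each animal was used, aged 442 to 663 days in wild type and 541 to 630 days in dTPR1 homozygotes, and total RNA was made into single-end libraries with a kit for total RNA. Library totals ran from 667751 to 927242 counts, so 3 counts were 3.24 to 4.49 CPM (counts of an ID divided by the library total, scaled to a common size). Per the labels each library is 1 animal. The ID of Stip1 itself had 0, 4, 0, 8 and 0 counts in wild-type libraries and 0, 8, 0, 5 and 0 in the libraries labelled dTPR1 homozygous, too few to check the deletion. Outside the mitochondrial genome, IDs that face an opposite-strand exon held 71.9% of all counts at 16.3 counts per library and kb of exon, against 0.799 for IDs that face only introns and 0.167 for IDs that face nothing. IDs within 5 kb downstream of an opposite-strand gene held 0.949. The files hold no read strand, so for any 1 ID, RNA of its own strand and RNA of the host cannot be told apart.

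The windows below show annotated exon bases as read on the strand of the host, 5′ to 3′, 300 bases each, from GENCODE M21 transcript sequences on GRCm38. Each window is the middle of the longest exon of the ID, and where the counted reads lay is not known. They were chosen after values were seen. Gm30177 had the most counts per kb among IDs lying wholly inside a protein-coding host, 2410021H03Rik is another such ID with high counts per kb, and Gm46432 is a pseudogene ID among those with the smallest p between genotypes. Capitals mark AATAAA, the commonest polyadenylation signal.
Gm30177 in Nrn1 (chr13:36727280-36727579, minus strand): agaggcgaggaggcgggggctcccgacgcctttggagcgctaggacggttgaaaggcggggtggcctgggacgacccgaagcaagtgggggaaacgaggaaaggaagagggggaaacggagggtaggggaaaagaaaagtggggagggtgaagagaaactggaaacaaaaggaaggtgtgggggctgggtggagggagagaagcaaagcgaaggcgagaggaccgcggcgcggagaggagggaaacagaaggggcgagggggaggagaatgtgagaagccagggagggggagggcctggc
2410021H03Rik in Epb41l3 (chr17:69275485-69275784, plus strand): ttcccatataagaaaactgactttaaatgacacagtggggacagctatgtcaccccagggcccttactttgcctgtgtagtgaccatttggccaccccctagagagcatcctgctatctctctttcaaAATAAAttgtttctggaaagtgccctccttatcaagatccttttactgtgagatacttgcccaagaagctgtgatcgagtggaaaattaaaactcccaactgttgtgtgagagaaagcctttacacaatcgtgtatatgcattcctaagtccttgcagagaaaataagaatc
Gm46432 in Tmem161b (chr13:84281348-84281647, plus strand): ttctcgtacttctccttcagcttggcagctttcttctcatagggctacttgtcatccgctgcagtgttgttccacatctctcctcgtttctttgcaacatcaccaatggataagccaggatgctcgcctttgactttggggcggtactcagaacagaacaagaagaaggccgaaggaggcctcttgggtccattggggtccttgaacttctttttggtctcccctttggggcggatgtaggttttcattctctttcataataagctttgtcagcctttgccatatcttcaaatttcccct

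The 6 letters AATAAA were present on the host strand of 33 of the 331 members with a window of that length (9.97%) and of 401 of 3442 intron-facing IDs under a mean of 3 (11.7%). On the strand of the ID it was present in 43 and 445 of them. The shares were close on either strand. A match is a description and not a site in use. The GC content of the windows had a median of 48.0% in members and 46.7% in the other IDs.

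Mir199a-1, the smallest member, was named for a miRNA read from the other strand than the host. It lies in intron 20 of 27 of Dnm2, which encodes the membrane-scission GTPase dynamin 2. Its mature RNAs (RefSeq, GRCm38.p6, seed bases 2 to 8 in capitals) have different seeds, and on the host strand the same hairpin reads as the reverse complement, with the bases opposite the seeds in capitals. These 3 sequences are shown to set the annotated product beside the strand of the host.
mmu-miR-199a-3p: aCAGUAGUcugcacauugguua
mmu-miR-199a-5p: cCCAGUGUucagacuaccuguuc
host strand of Mir199a-1 (chr9:21496495-21496564, plus strand): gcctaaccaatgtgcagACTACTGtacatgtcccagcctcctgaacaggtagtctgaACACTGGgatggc

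Counts at Mir199a-1 in animals 1 to 5 were 8, 0, 11, 4 and 1 in wild type and 6, 15, 17, 2 and 8 in dTPR1 homozygotes, and the groups overlapped. Over its 70 bases this was 102.9 counts per kb. The exon-facing ID of Dnm2 held a mean of 187.5 counts. In all, 5 members were miRNA IDs and 5 were snRNA IDs, with median exon lengths of 104 and 107 bases, and RefSeq sequences were matched for 2 of the 5 miRNA IDs.

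Members were mostly not the short RNAs. Protein-coding IDs were the largest class (147 members, 46.9% of member counts), followed by antisense RNAs (81 members, 27.1%), processed pseudogenes (54 members, 10.9%) and TEC models (31 members, 5.72%), which are loci still to be experimentally tested in the annotation. Protein-coding IDs made up 40.3% of members against 19.7% of the intron-facing IDs below the threshold, and processed pseudogenes 14.8% against 26.6%. Reads from pseudogenes can also belong to their parent genes, so the counts at these IDs are uncertain.

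The fit to the label differed between members. In 247 of 365 members (67.7%) every exon base lay inside the host, and in 45 (12.3%) under 10% of exon bases did, so most of the sequence counted there faced no host intron. The hosts numbered 347, of which 13 held more than 1 member, and 272 members (74.5%) had a protein-coding host. Members had longer exons than the IDs below the threshold (median 1844 against 626 bases), and an ID with more bases can collect more counts.

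**Figure D1:**
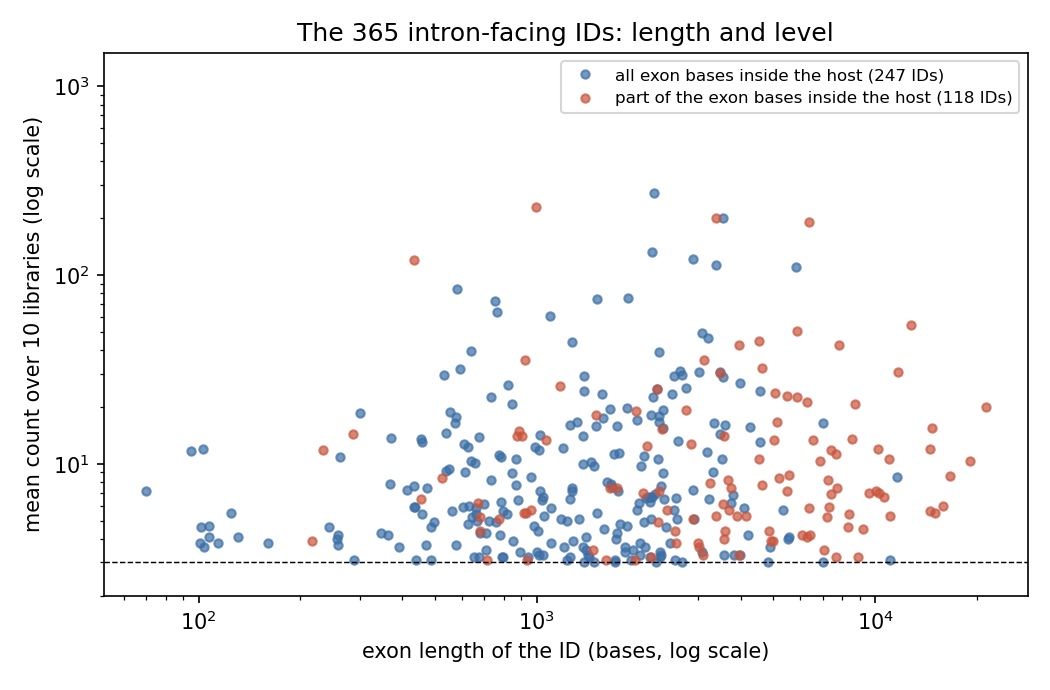
Mean count over 10 libraries against exon length for the 365 intron-facing IDs, both axes on a log scale, with the dashed line at the mean count of 3 that chose them. The 247 IDs wholly inside the host include most of the short ones, and the 118 IDs only partly inside include most of the longest.

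Members lay near exons and transcript ends of the opposite strand. Among IDs wholly inside the host, members had a median distance of 1340 bases to the nearest host exon against 4896 bases for those below the threshold. With exon length held to 1 to 3 kb the medians were 1758 and 6352.5 bases. The hosts were shorter too, with medians of 69360 bases for these members and 137701 for the others. The part of host length in the distances was not tested. The share of IDs reaching a mean of 3 was 10.4% within 100 bases of a host exon, 10.1% from 300 to 1000 bases, 4.39% from 3000 to 10000 bases and 2.16% from 10000 to 100000 bases. It was 4.84% among the 186 IDs farther away, so the decline was not even. Counts per kb took another course, from 1.37 within 100 bases to 1.58 at 100 to 300, 2.40 at 300 to 1000, 1.82 at 1000 to 3000 and 0.547 at 3000 to 10000 bases, then 0.503 at 10000 to 100000 and 0.709 beyond.

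A transcript end nearby went with more counts. Among IDs wholly inside the host, 99 of 247 members (40.1%) lay within 5 kb past an annotated end of an opposite-strand transcript, against 14.4% of those below the threshold. With exon length held to 1 to 3 kb, the shares were 44 of 117 (37.6%) and 121 of 830 (14.6%), and the end was one of the host itself in 25.6% and 8.80%. IDs past such an end held 2.62 counts per kb, or 2.29 without Slc39a5, against 0.663 for IDs with no such end. The first intron of the host held 19.8% of members and 29.6% of the IDs below the threshold, and the last intron 16.2% and 14.4%.

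**Figure D2:**
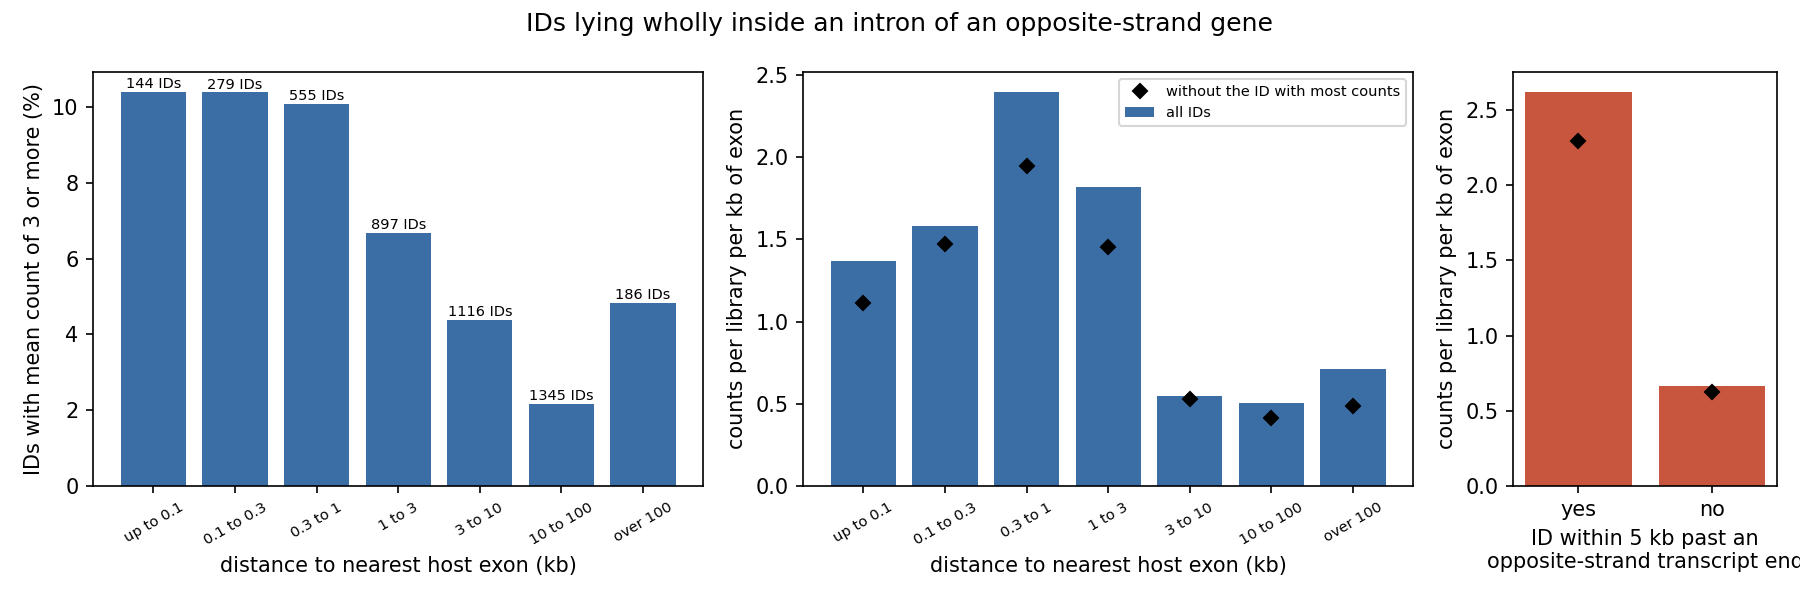
IDs lying wholly inside an intron of an opposite-strand gene, by distance to the nearest host exon (left, percent with a mean count of 3 or more; middle, counts per library and kb of exon) and by presence of a transcript end within 5 kb before the ID on the host strand (right). Diamonds leave out the ID with most counts, and the density is highest at 0.3 to 1 kb from an exon, lower over 3 kb away, and higher past a transcript end, 2.62 against 0.663 counts per kb.

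Hosts of members also had more exonic counts. An exon-facing ID of the host was available for 108 members, and its median mean count was 13.2 against 1.7 for the hosts of 1309 IDs below the threshold. The host's exonic count was above the member's in 67 of the 108 and below it in 40. Amigo3 (29.3 counts) lies in the ubiquitin ligase gene Rnf123, whose exon-facing IDs together held 1458.6, the highest of the 108. Of these counts, 1394.6 were at Gmppb. In the other direction, Srf and Tchh held 121.2 and 110.7 counts against 0 at the exon-facing ID of their hosts. Amigo3 was chosen after its values were seen, and counts of different IDs are not scaled for length here.

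The 12 members with the highest mean CPM held 32.4% of all member counts. Slc39a5, a zinc transporter gene (chr10:128395931-128401229), lies in the last of 28 annotated introns of Ankrd52, a regulatory subunit gene of protein phosphatase 6, and starts 1925 bases past an annotated end of an Ankrd52 transcript. Its counts in animals 1 to 5, the order used throughout, were 305, 426, 222, 237 and 253 in wild type and 264, 214, 208, 383 and 217 in dTPR1 homozygotes, or 353.7 ± 89.7 and 327.3 ± 50.7 CPM (SD, n = 5 each). Wild-type animal 2 and dTPR1 homozygous animal 4 were highest in counts and the groups overlapped. The exon-facing IDs of Ankrd52 held a mean of 335.3 counts.

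Gm48239 (chr14:12374585-12384729), an antisense ID, lies in intron 35 of 36 of Cadps, which encodes a priming factor of dense-core vesicles, and 1948 bases past an annotated Cadps transcript end. It was counted 260, 190, 207, 191 and 230 times in wild type and 222, 115, 178, 229 and 194 times in dTPR1 homozygotes. The groups overlapped, with dTPR1 homozygous animal 2 lowest. Actl10, an actin-like gene in intron 6 of 13 of Necab3, began 1014 bases past an annotated Necab3 end and was counted 34 to 115 times per library.

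Gm30177, inside Nrn1 (neuritin, a neuronal growth protein), and Gm17112, mostly outside Epo (erythropoietin), had high densities for their 579 and 432 exon bases, with 146.3 and 278.0 counts per kb. Gm30177 varied widely in both groups, with 115, 71, 26, 79 and 163 counts in wild type and 120, 18, 93, 104 and 58 in dTPR1 homozygotes. Gm17112 had 28.0% of its exon bases in its host, and A230083G16Rik, at 230.5 counts per kb the other densest member, had 32.3% in Ptms, the parathymosin gene.

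Several of the 12 fit the label poorly. A930004D18Rik and Rabl6, a RAB-like GTPase gene, had 5.1% and 6.4% of their exon bases in their hosts Gm13330 and Fcnaos. Srf, the serum response factor gene, H2-T24, a nonclassical MHC class I gene, and Tchh, a hair follicle protein gene, lie wholly in introns of noncoding hosts, 43744, 11135 and 16243 bases from the nearest host exon. H2-T24 belongs to a multigene family, so its counts are uncertain. Srf was counted 98, 152, 222, 136 and 121 times in wild type and 80, 55, 119, 146 and 83 times in dTPR1 homozygotes, and the groups overlapped. Gm28370, 926 bases past an end of Synj2bp inside the host Gm20498, ranged from 52 to 272 counts.

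**Figure D3:**
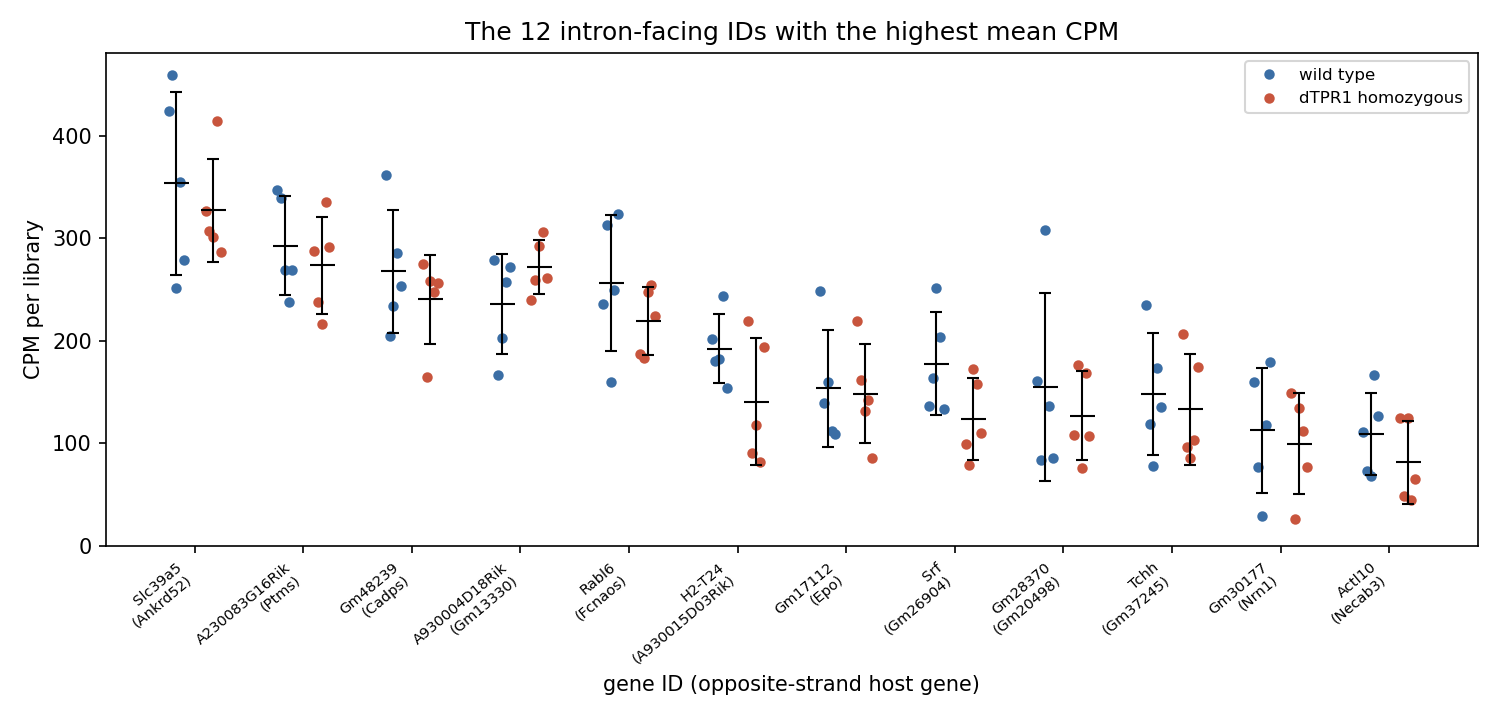
CPM in each library for the 12 intron-facing IDs with the highest mean CPM, with the host in brackets. Points are animals, black bars the mean and SD of 5, and the genotypes overlap at every ID, for example 353.7 and 327.3 CPM at Slc39a5.

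Gm20388 held the most members, 7, and has an annotated body of 4434882 bases (chr8:119910841-124345722) that takes in many other genes. Its members are Gm17709 (60.4 counts), Dbndd1 (30.9), Ccsap (25.2), Gm20735 (highest in wild-type animal 3, 44 counts), 2810455O05Rik (11.2), Fam92b (3.5) and Taf5l (3.3). They lie 255458 to 2061788 bases from an exon of Gm20388. A930015D03Rik held H2-T24 and H2-T23 (132.0 and 7.3 counts), and Gm26904 held Srf and Gnmt (121.2 and 3.6), a glycine methyltransferase gene.

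Hosts were also read against gene lists that fit the tissue, and 6.53% of all intron-facing IDs were members. Of 24 IDs in presynaptic hosts, 3 were members (12.5%): Gm48239 in Cadps, Gm47472 in the vesicle calcium sensor gene Syt1 and 4930447F24Rik in Bsn, the active zone scaffold gene. Of 61 IDs in postsynaptic and adhesion hosts, 4 were members (6.56%), among them Gm14372 in Shank2, Gm27749 in Sorcs1 and 4930567K12Rik in Dlg2. Of 42 IDs in ion channel hosts 1 was (2.38%), Gm19031 in Kcnip4, a potassium channel subunit gene.

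RNA binding and splicing hosts held 2 members of 13 IDs, Gm15893 in Msi2 and 1700109K24Rik in Rbfox2. Imprinted hosts held 1 of 10, Gm44829 in Snhg14, and signalling hosts 1 of 39, 9230117E06Rik in the diacylglycerol kinase gene Dgkg. Among inhibitory neuron hosts 1 of 4 was a member, Gad1os, and among chaperone hosts 1 of 2, Stk4, with 2.1% of its exon bases in the HSP90 co-chaperone gene Tomm34. Oligodendrocyte, astrocyte, microglia, excitatory neuron and striatum hosts had 0 members of 6, 6, 4, 3 and 4 IDs. These lists are small, and their shares were not tested.

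Most members in the listed hosts had few counts and differed widely between animals. Gm15893 was counted 23, 38, 28, 23 and 26 times in wild type and 34, 19, 11, 15 and 17 times in dTPR1 homozygotes, and the groups overlapped. Gm47472 was at 0, 23, 0, 27 and 10 counts in wild type and 8, 5, 23, 10 and 24 in dTPR1 homozygotes. Gm14372 was at 9, 22, 0, 10 and 16 counts in wild type and 10, 0, 0, 0 and 0 in dTPR1 homozygotes. Thus 4 of 5 wild-type animals and 1 dTPR1 homozygote had any count at Gm14372, an ID in the gene of a postsynaptic scaffold protein. Zeros were common at this level: 97.4% of members and 93.2% of exon-facing IDs with means from 3 to 10 were at 0 in some library. Gad1os, across from the gene of the GABA-synthesising enzyme GAD67, was counted in 3 wild-type animals (6, 21 and 3 counts) and in 1 dTPR1 homozygote (1 count). A library at 0 allows up to 3 counts, which is 3.24 to 4.49 CPM (counting error only), and Gm47472, Gm14372 and Gad1os were not tested in the main edgeR fit. The edgeR fit with no filter on low counts held all 365 members and called 0 at an adjusted p under 0.05. Over all its IDs it called 2 of 14428, so 0 members says nothing particular about them.

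Members took a similar share of the library in both genotypes. The share was 0.646% to 0.874% of counts (median 0.748%) in wild type and 0.639% to 0.787% (median 0.660%) in dTPR1 homozygotes, and the groups overlapped. Members with few counts were counted unevenly: 107 members had counts in all 10 libraries, 142 in fewer than 8, and in 20 over 50% of the counts came from 1 library. Between animals the median coefficient of variation was 113% for members with a mean from 3 to 10, 63.1% from 10 to 30, 41.5% from 30 to 100 and 25.3% from 100 to 300. Exon-facing IDs at the same levels had 108%, 61.5%, 37.9% and 24.8%.

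The genotype comparison asks whether counts at these IDs, whatever RNA they hold, differ when STI1 lacks TPR1. Of the 128 members tested, 83 lay wholly inside the host. The edgeR quasi-likelihood test with Benjamini-Hochberg adjustment over 3027 IDs called none at an adjusted p under 0.05 (0% of all tested IDs), and 0 of the 128 members that passed the filter on low counts. An unadjusted p under 0.05 was reached by 2.54% of all tested IDs and by 5 of 128 members (3.91%), 1 higher in dTPR1 homozygotes (1.19% of all IDs) and 4 lower (1.35% of all IDs). The fold change was above 0 in 55 of 128 members (43.0%) against 52.1% of all tested IDs, with medians of -0.07 and 0.02 on the log2 scale. The median SE was 0.64 for members and 0.47 for all tested IDs, and the other 237 members, with means up to 14.4 counts, were not tested. DESeq2, without that filter, also called 0 members (0% of all its IDs). Of the 363 members it tested, 14 (3.86%) had an unadjusted p under 0.05, against 1.94% of all its IDs. Those were 14395 IDs, while only 5493 had a mean count of 3 or more, as every member did. These shares thus do not rest on like IDs.

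**Figure D4:**
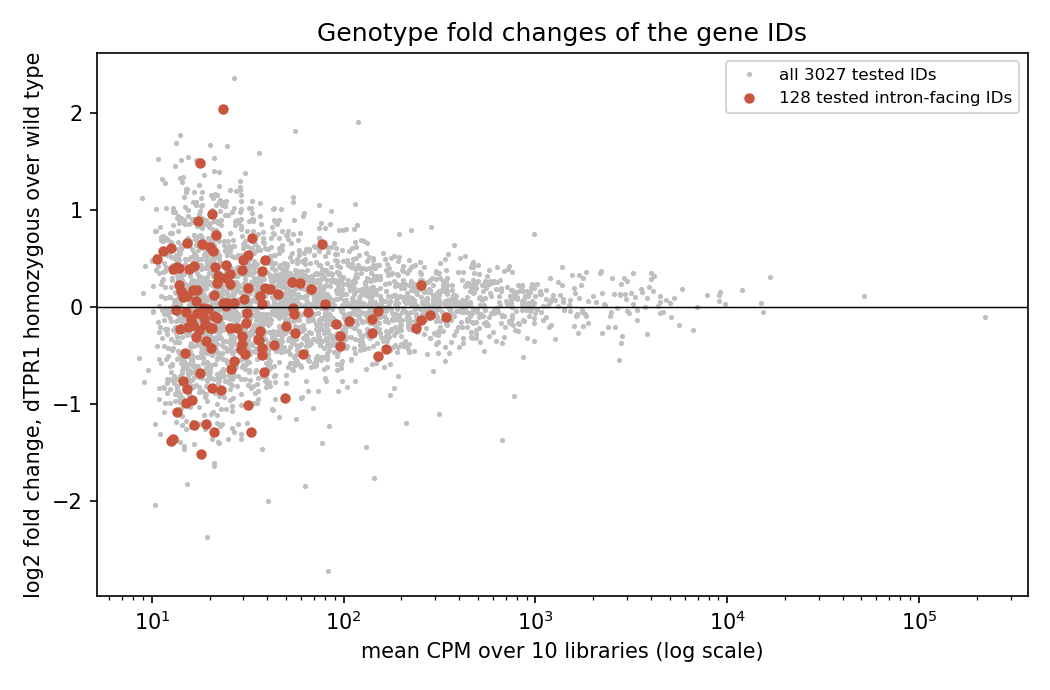
Log2 fold change (dTPR1 homozygous over wild type, edgeR) against mean CPM over the 10 libraries on a log scale, for all 3027 tested IDs (grey) and the 128 tested intron-facing IDs (red). The members lie within the cloud of all IDs and spread most at low CPM, from -1.52 to 2.04.

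The 8 members with the smallest p are described next, each with an adjusted p of 0.997 in edgeR. Gm28884 (chr1:85933247-85937332) lies in the single intron of 4933407L21Rik. It was counted 32, 74, 46, 23 and 19 times in wild type and 25, 13, 9, 8 and 18 times in dTPR1 homozygotes, or 46.4 ± 22.0 and 19 ± 8.8 CPM (SD, n = 5 each). Wild-type animals 2 and 3 were highest and the groups overlapped, with a log2 fold change of -1.29 ± 0.51 (SE). The exon-facing ID of the same host held a mean of 91.5 counts.

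Some other measures also set these 2 libraries apart, and some did not. Summed CPM of the 4 striatal marker genes that have an exon-facing ID (Penk, Ppp1r1b, Rarb and Syndig1l, of 18 listed, with none of the 4 at 0) was 803 to 5306 in wild type, highest in animals 3 and 2, and 388 to 2189 in dTPR1 homozygotes. The 4 inhibitory neuron markers with such an ID, of 14 listed and with none of the 4 at 0, summed to 1583 and 1886 CPM in wild-type animals 2 and 3, 568 to 855 in the other wild-type animals and 437 to 1558 in dTPR1 homozygotes. Mitochondrial IDs held 28.2% and 27.3% of counts in wild-type animals 2 and 3 and at most 24.2% in the other 8 libraries. Excitatory neuron markers summed to 2427 and 2427 CPM in these 2 animals, within the 1948 to 8130 of wild type. Their oligodendrocyte sums were 842 and 1581 CPM and their astrocyte sums 1130 and 688. Microglia sums were 156 and 185 CPM, against 217 to 275 in the other wild-type animals and 143 to 273 in dTPR1 homozygotes. Fewer cells of a type and less RNA per cell cannot be told apart in such tissue. Without wild-type animals 2 and 3 the log2 fold change of Gm28884 was -0.76 ± 0.60 (SE), and in that edgeR fit 3 of 159 tested members (1.89%) and 2.3% of all IDs had an unadjusted p under 0.05.

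Cmc1, a gene for assembly of cytochrome c oxidase, has 70.7% of its exon bases in Azi2, the gene of an adaptor of the kinase TBK1. It was counted 36, 48, 34, 18 and 41 times in wild type and 11, 10, 18, 21 and 21 times in dTPR1 homozygotes, or 42.5 ± 10.1 and 20.9 ± 6.6 CPM (SD, n = 5 each). The lowest wild-type animal, 4, lay at 27.0 CPM, just under the highest dTPR1 homozygote at 27.7, and the log2 fold change was -1.01 ± 0.45 (SE).

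Gm46432, the pseudogene ID in Tmem161b shown above, was counted 64, 37, 99, 33 and 34 times in wild type and 28, 31, 16, 25 and 30 times in dTPR1 homozygotes. Wild-type animals 1 and 3 were high, and in CPM animals 2 and 5 (39.9 and 37.5) lay within the range of the dTPR1 homozygotes (highest 44.4), for a log2 fold change of -0.94 ± 0.40 (SE). Gm16364, in the last intron of the Src-family kinase gene Fyn, was counted 8, 22, 38, 36 and 16 times in wild type and 14, 7, 10, 12 and 4 times in dTPR1 homozygotes. Wild-type animals 3 and 4 were high and the groups overlapped (-1.29 ± 0.61).

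Gm18517 was the tested member with the largest positive fold change in edgeR. It lies in 9330111N05Rik and was counted 27, 0, 0, 5 and 3 times in wild type and 17, 35, 29, 48 and 17 times in dTPR1 homozygotes. All dTPR1 homozygotes lay above 4 of the 5 wild-type animals, and wild-type animal 1 was within their range. The log2 fold change was 2.04 ± 0.90 (SE), 3.82 without wild-type animal 1 and 1.27 without wild-type animals 2 and 3.

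Gm45854, Gm18499 and Gm17709 completed the 8, each with an unadjusted p over 0.05 in edgeR. Gm45854 lies in Csnk2a2, a casein kinase 2 subunit gene, and averaged 26.7 ± 14.8 CPM (SD, n = 5) in wild-type animals against 9.2 ± 5.8 in the homozygotes. Gm18499 in Tmem63c was 9.1 ± 6.1 and 26.5 ± 18.9 CPM, and its log2 fold change of 1.48 ± 0.73 (SE) was 0.98 without dTPR1 homozygous animal 1 and 2.29 without wild-type animals 2 and 3. Gm17709 in Gm20388 was 59.8 ± 22.7 and 93.5 ± 20.6 CPM, with overlap between the groups at all 3 IDs.

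**Figure D5:**
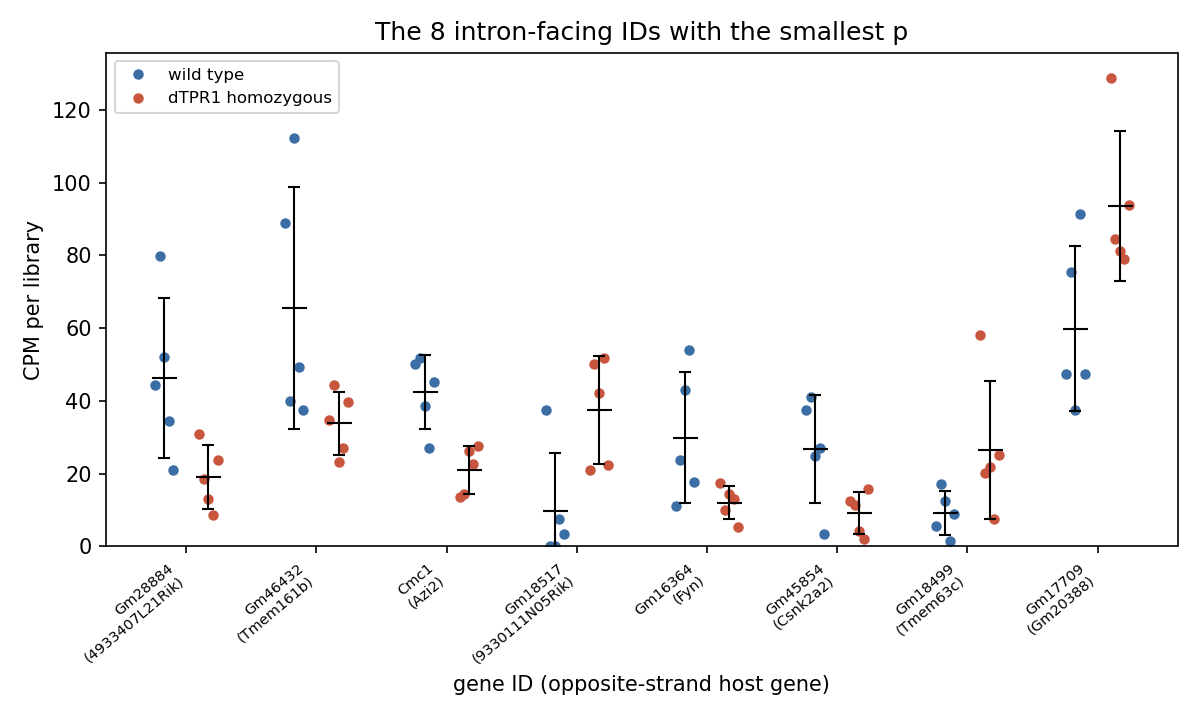
CPM in each library for the 8 tested intron-facing IDs with the smallest p, with the host in brackets. Points are animals, black bars the mean and SD of 5, and the genotypes overlap at each ID, by the least at Cmc1, where the means were 42.5 and 20.9 CPM.

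Groups without any overlap in CPM were found at 0.528% of all IDs with a mean count of 3 or more and at 1 of the 365 members (0.274%). That member was Gm19031, a processed pseudogene ID in Kcnip4, counted 4, 1, 5, 6 and 10 times in wild type and 10, 14, 18, 22 and 10 times in dTPR1 homozygotes. All dTPR1 homozygotes lay above all wild-type animals in CPM (19.1 against 6.46 on average). It was picked for this separation, so no p is given for the separation itself. The filter on low counts had removed this ID. DESeq2, run without that filter, gave a log2 fold change of 1.58 ± 0.74 (SE) with an adjusted p of 0.974. With no filter, edgeR gave 1.59 ± 0.99 (SE) with an adjusted p of 0.342. Among the 128 tested members, groups did not overlap at 0, against 0.429% of all tested IDs.

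The fold changes of members and of the exon-facing IDs of their hosts were also set side by side. Of the 108 members with an exon-facing ID of the host, 17 were tested on both sides, and 7 had fold changes of the same sign. At Slc39a5 the log2 fold change was -0.10 ± 0.20 (SE) and at the exon-facing ID of Ankrd52 with most counts it was 0.05 ± 0.16. At neither was the difference larger than its error.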

How the data were processed

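RNA from the cortex of 10 mice was sequenced, 1 library per animal. The deposited values are raw read counts per Ensembl gene ID, not normalised, and TopHat, HTSeq and DESeq2 with build GRCm38.p5 are named, per the submitters' processing notes. Versions and the strand setting are not given in the sources used here. IDs were placed by GENCODE M21 on GRCm38, which held 52403 of 53090, and 687 were left out of the classes. Transcript ends within 5 kb were taken from the same annotation.

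Genotypes were compared with edgeR 4.0.16 in R 4.3.3 on all IDs (TMM, filterByExpr, robust quasi-likelihood fit, Benjamini-Hochberg adjustment, threshold 0.05), without covariates. Positive log2 fold changes mean more counts in dTPR1 homozygotes. DESeq2 1.42.0, limma-voom (limma 3.58.1), other factors and filters, age, the replicate block and left-out libraries were alternatives. The fit was tested on simulated data. Totals of 667751 to 927242 counts limit what low IDs can show. Since the counts carry no molecular identifiers, the floor given for a library at 0 covers counting error only. The SDs and SEs also hold differences between animals.

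The members and lists were chosen with earlier results of these data known. The IDs named are the 12 with the highest mean CPM, the 8 with the smallest p, the members of the 3 hosts with most members (ties broken by summed count), up to 3 per host list, those nearest the threshold and the 3 densest per kb. 2410021H03Rik, Mir199a-1 and Amigo3 were named after their values were seen. Some results are not reported here.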

Additional observations from a re-analysis of the deposited data

Results flagged for a closer look

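Of 86 groups of 5 animals examined, 84 at the 42 named IDs and 2 for the members' share of the library, 9 held an animal far from the other 4. Chance flags about 1 in 20 groups of normally distributed values, and that rate does not hold for such low counts. A group with counts in 1 library, for example, is always flagged, as 3 of the 9 were. Gm48239 was lowest in dTPR1 homozygous animal 2 at 164.9 CPM, against 247.7 in the nearest other. Gm18517 was highest in wild-type animal 1 at 37.5 CPM, against 7.49. Gm20735 reached 29.0 CPM in dTPR1 homozygous animal 3, against 11.9, and 4930447F24Rik 38.4 CPM in dTPR1 homozygous animal 1, against 5.28.

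In dTPR1 homozygous animal 5, Stk4 stood at 58.1 CPM against 22.9, Gm27749 at 10.6 against 2.87, and Gad1os at 1.32 CPM with the other 4 at 0. Gm14372 was 12.4 CPM in dTPR1 homozygous animal 1 and 0 in the other 4, and Fam92b was 2.27 CPM in wild-type animal 3 and 0 in the other 4. The 9 values fell in 6 libraries, and their cause was not tested.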

How the results depend on the processing

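No member was called at an adjusted p under 0.05 under any alternative that was run, and over all IDs 2 were called with no filter and 0 otherwise, with 0 in each fit that left out a library. A mean count of 1 or more gave 804 members and one of 10 or more gave 137. Of the 365 members, 315 remained when an opposite-strand exon within 100 bases counted as facing an exon. Leaving out overlaps with exons on the ID's own strand kept 353. Without mitochondrial IDs in the denominator the mean share of the library was 0.935% in place of 0.721%, and with each library left out in turn it ranged from 0.704% to 0.730%. The log2 fold change of Slc39a5, -0.10 with all libraries, ranged from -0.21 to 0.031 with a library left out and was reversed, at 0.031, without wild-type animal 2, and that of Gm48239 -0.03 without wild-type animal 1 or without dTPR1 homozygous animal 2 in place of -0.13, -0.21 without wild-type animal 2 and -0.28 without wild-type animals 2 and 3. The cause was not tested. Members at an unadjusted p under 0.05 were 5 of 128 in the main comparison (3.91%, against 2.54% of all IDs), 14 of 363 with DESeq2 (3.86% against 1.94%), 2 of 128 with the replicate block (1.56% against 2.28%) and 7 of 365 with no filter (1.92% against 9.01%). With DESeq2 and with no filter, all IDs numbered 14395 and 14428, while only 5493 had a mean count of 3 or more, as every member did. The shares from those fits thus do not rest on like IDs and show no lack or excess at the members. Such members were 2 of 150 without dTPR1 homozygous animal 2 (1.33% against 3.73%), 3 of 152 without animal 3 (1.97% against 2.05%), 3 of 137 without animal 4 (2.19% against 2.32%) and 3 of 141 without wild-type animal 2 (2.13% against 2.2%). Animal numbers were not used as pairs in the main comparison. Same-numbered animals had correlations from -0.09 to 0.12, and 2 of 5 animals matched their own number best. So few values at these low counts cannot exclude a link between same-numbered animals. With the replicate block 0 members were called. Low counts limit the fits: the filter of the main comparison left out 237 members.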
